A study of Mus musculus with 12 samples.

Results

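The levels of 10 genes were followed across RNA-Seq libraries of U2OS, a human osteosarcoma cell line: the 2 ferritin subunits FTL and FTH1, and the NRF2 targets HMOX1, NQO1, GCLC, GCLM, TXNRD1, SRXN1, TXN and PRDX1. They were found by full name among the 58735 genes of the expression table, and each of the 10 names matched 1 gene. The genes were chosen from their FPKM in these same libraries, with earlier results in view, so their values, differences and calls are given as a description and no p-value is printed for them. Every fit was run on 17538 genes whose mean FPKM over the 12 libraries reached 0.5, and all 10 were among them.

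The study depleted the splicing factor SRSF1 in osteosarcoma cells, and its libraries formed 4 groups of 3 replicates: blank cells, 2 groups that received an siRNA against SRSF1 (siSRSF1-2 or siSRSF1-3), and a group named OE-LINC01134 in which the long non-coding RNA LINC01134 was overexpressed. No library of cells given a control siRNA or an empty vector was analysed here, so a difference from blank cells holds the delivery together with the agent, and these cannot be told apart. The labels give mouse as the organism, but the table lists human Ensembl identifiers. Transfection is described for HOS cells, another osteosarcoma line, so no dose or time is given here for U2OS, nor a vector for LINC01134, and nothing in the labels says whether replicates were separate cultures.

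NRF2, encoded by NFE2L2, is a transcription factor that KEAP1 holds at low levels by sending it for degradation. Oxidants and electrophiles release NRF2, which then binds antioxidant response elements with a small MAF partner, while BACH1 occupies the same elements as a repressor. Its targets make glutathione, run the thioredoxin system, reduce quinones and break down heme, and the iron set free from heme is stored in ferritin, a shell of light and heavy subunits whose translation is also held by iron regulatory proteins.

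The targeted genes moved in the direction of the labels. SRSF1 measured 35.9, 19.8 and 20.5 FPKM in blank cells, 7.09, 7.46 and 7.41 with siSRSF1-2, and 3.33, 6.81 and 7.90 with siSRSF1-3. Its log2 fold change was -1.72 ± 0.23 (SE) with siSRSF1-2 (limma, adjusted p = 0.00500) and -2.09 ± 0.38 with siSRSF1-3 (limma, adjusted p = 0.0518), and neither group overlapped blank cells (exact two-sided permutation p = 0.1 each, the smallest that 3 against 3 allows). LINC01134 measured 0.497 to 0.791 FPKM in blank cells and 878 to 1279 in OE-LINC01134 (log2 fold change 10.50 ± 0.22, limma, adjusted p = 1.18e-05; exact two-sided permutation p = 0.1). Each library held between 26237763 and 32954539 reads on genes.

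The libraries did not spread evenly within groups, and this touches every comparison. The pairs blank 2 and 3, OE-LINC01134 1 and 3, and the 3 siSRSF1-2 libraries differed by only 1.91 to 2.55 times counting noise, whereas every other pair of libraries differed by 11.5 times or more. siSRSF1-3 replicate 3 was nearer to the siSRSF1-2 libraries (11.5 to 13.96 times counting noise) than to replicates 1 and 2 of its own group (63.6 and 34.7 times), and blank replicate 1 was nearest to OE-LINC01134 replicate 2 (13.8 times). In siSRSF1-3 replicates 1 and 2 the median of 61 cytosolic ribosomal protein genes lay 1.94 and 1.22 log2 units above the blank mean, against -0.21 to 0.18 in the other libraries. Of the markers of the line, VIM, SPARC and COL1A1 were at 14.1 FPKM or more in every library, RUNX2 and CDH2 were detected at 1.55 FPKM or more and COL1A2 was at or near 0. The 4 leukocyte markers reached at most 0.164 FPKM and the 3 endothelial markers 0.368. Of the epithelial markers, EPCAM was at 0.918 to 2.43 FPKM, CDH1 at 0.345 to 0.862 and KRT19 at 0.240 or less.

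In blank cells the 10 genes ranked from 10 to 8730 among all genes of the table. FTL stood highest, at 3011 ± 84.4 FPKM (SD, n = 3). FTH1 followed at 707 ± 5.54, then PRDX1 at 250.0 ± 155, TXN at 201 ± 32.5, HMOX1 at 123 ± 41.9, TXNRD1 at 65.9 ± 11.8, NQO1 at 49.9 ± 9.67, GCLM at 11.1 ± 1.47, GCLC at 8.31 ± 1.54 and SRXN1 at 3.96 ± 0.96. Neighbours in this order whose blank libraries overlapped were PRDX1 and TXN, HMOX1 and TXNRD1, and TXNRD1 and NQO1. FTL was the highest and SRXN1 the lowest of the 10 in all 12 libraries, and GCLM and GCLC always took places 8 and 9. The 10 genes together took 0.518% to 0.827% of the reads on genes, most of it ferritin at 0.404% to 0.705%, and both shares were highest in siSRSF1-3 replicate 1.

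**Figure D1:**
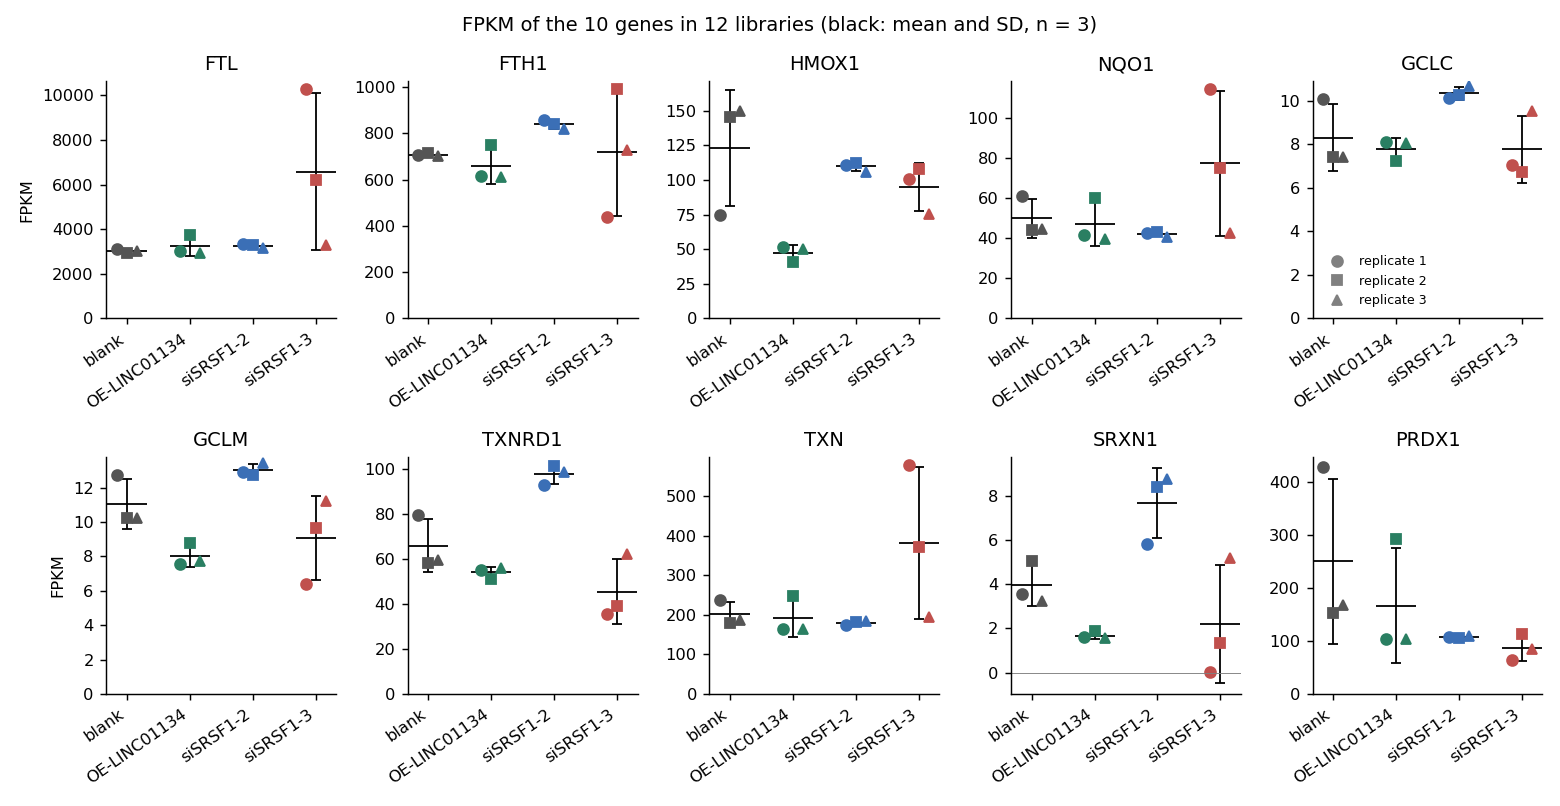
FPKM (vertical axis, linear) of each of the 10 genes in the 4 groups (horizontal axis). Coloured symbols are single libraries, with the shape giving the replicate, and black bars give the mean and SD of 3 libraries. The siSRSF1-3 libraries spread from 3274 to 10266 FPKM for FTL and from 0.0378 to 5.18 for SRXN1, while the 3 siSRSF1-2 libraries lie close together for every gene but SRXN1.

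Among the siSRSF1-3 libraries, the ferritin subunits moved in opposite directions only in replicate 1. FTL stood there at 1.77 and FTH1 at -0.68 log2 units from the blank mean, and both were above it in replicates 2 and 3. FTL (ferritin light chain, ENSG00000087086, chromosome 19, 48965301 to 48966878, as listed, with no genome build given in the sources used here) encodes the subunit that favours iron mineralization. It measured 3096, 2927 and 3010 FPKM in blank cells, 3030, 3731 and 2938 in OE-LINC01134, 3330, 3284 and 3165 with siSRSF1-2, and 10266, 6195 and 3274 with siSRSF1-3. All siSRSF1-3 libraries were above all blank libraries, yet replicates 1 and 2 stood far above and replicate 3 lay within the siSRSF1-2 range. The log2 fold change against blank was 0.98 ± 0.62 (SE) with siSRSF1-3, 0.11 ± 0.06 with siSRSF1-2 and 0.09 ± 0.14 in OE-LINC01134. Without siSRSF1-3 replicate 1 the siSRSF1-3 value was 0.58, and without replicate 3 it was 1.41.

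FTH1 (ferritin heavy chain, ENSG00000167996, chromosome 11, 61959718 to 61967660) encodes the subunit with ferroxidase activity. Its blank libraries were the tightest of all 10 genes, at 706, 713 and 702 FPKM, and 99.4% of the genes tested spread more widely there. The level was 615, 750 and 612 in OE-LINC01134, 857, 842 and 818 with siSRSF1-2, and 440, 994 and 730 with siSRSF1-3. With siSRSF1-2 every library was above every blank library (log2 fold change 0.25 ± 0.05), a difference of 1.19-fold. With siSRSF1-3 the libraries lay on both sides of the blank range (-0.05 ± 0.39), replicate 1 below it and replicates 2 and 3 above it.

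Within a library, FTL stood 4.10 to 4.38 times above FTH1 in blank cells, 4.80 to 4.97 times in OE-LINC01134 and 3.87 to 3.90 times with siSRSF1-2. These 3 ranges did not overlap. In siSRSF1-3 the ratio was 23.3, 6.23 and 4.48, so replicate 1 combined the highest FTL with the lowest FTH1 of all 12 libraries. A ratio within a library does not depend on the scaling between libraries.

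**Figure D2:**
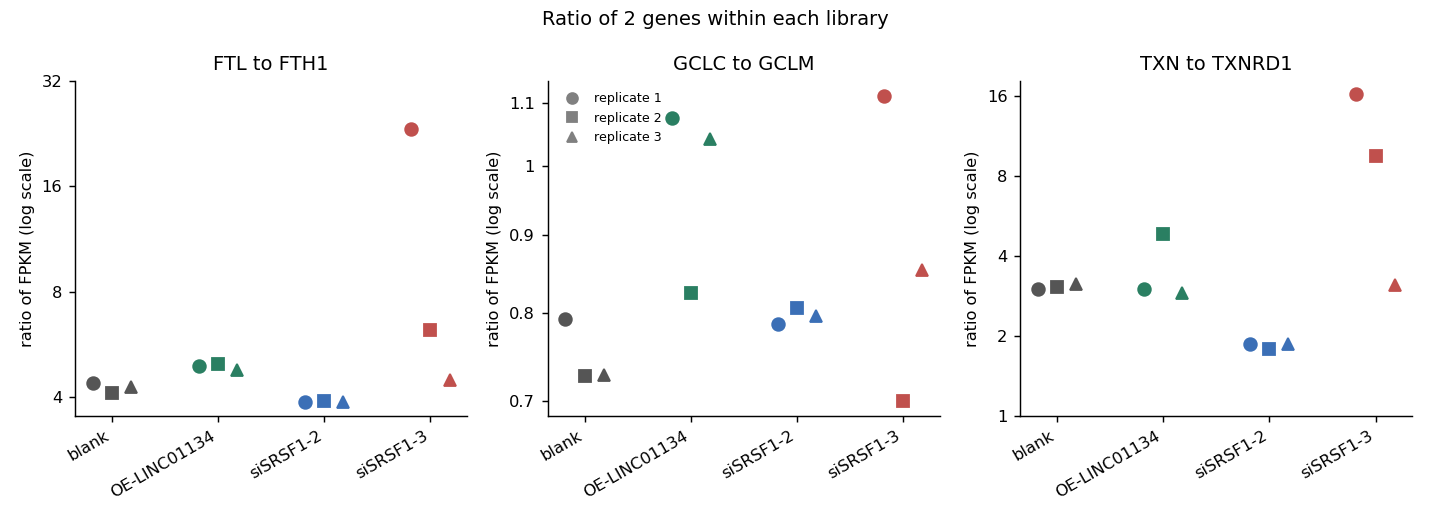
Ratio of the FPKM of 2 genes within each library (vertical axis, log scale) by group (horizontal axis), with 1 symbol per library whose shape gives the replicate. The ratio of FTL to FTH1 reaches 23.3 and that of TXN to TXNRD1 reaches 16.3 in siSRSF1-3 replicate 1, and siSRSF1-3 replicate 3 sits near the blank libraries in both.

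Processed pseudogenes of ferritin give a further view of these reads, since they resemble the spliced transcripts. Of 25 FTH1 pseudogenes in the table, 7 passed the expression filter, and all 25 together held 1.20% of the reads on FTH1 and its pseudogenes. Their summed reads were 361 to 440 in blank cells, 548 to 664 with siSRSF1-2, and 800, 860 and 488 in siSRSF1-3 replicates 1 to 3. FTH1 itself held 17522, 51298 and 46216 reads in those last 3 libraries. In replicate 1 the parent gene was thus low where the summed reads of its pseudogenes were high. Of the 7, pseudogenes 2, 7, 8 and 11 held more reads there than in any blank library. Pseudogenes 3 and 23 lay within the blank range, and pseudogene 16 held 0 reads against 12 to 21 in blank cells. The 16 FTL pseudogenes held 27 to 74 reads per library, against 73044 to 176718 on FTL. On the opposite strand FTH1 overlaps the bestrophin 1 gene, which held 72 to 1102 reads per library. How the authors' counting treated reads that match a gene and its pseudogene is not given in the sources used here.

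HMOX1 (heme oxygenase 1, ENSG00000100292, chromosome 22, 35380361 to 35394214) breaks heme down to biliverdin, carbon monoxide and iron. It measured 75.0, 145 and 150 FPKM in blank cells and 51.6, 40.5 and 49.9 in OE-LINC01134, so every overexpressing library was below every blank library. With siSRSF1-2 it measured 111, 112 and 106, within the blank range, and with siSRSF1-3 it measured 101, 108 and 75.1. The log2 fold change was -1.32 ± 0.28 in OE-LINC01134, -0.10 ± 0.27 with siSRSF1-2 and -0.33 ± 0.33 with siSRSF1-3. Blank replicate 1 was a factor of 2.00 below the highest blank library, and without it the OE-LINC01134 value was -1.65. In the siSRSF1-2 comparison the value was -0.43 without blank replicate 1, and its sign turned without blank replicate 2 (0.05) and without blank replicate 3 (0.07).

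NQO1 (NAD(P)H quinone dehydrogenase 1, ENSG00000181019, chromosome 16, 69706996 to 69726951) reduces quinones by 2 electrons. Its FPKM were 61.1, 44.0 and 44.7 in blank cells, 41.5, 60.1 and 39.9 in OE-LINC01134, 42.5, 43.0 and 40.7 with siSRSF1-2, and 115, 75.3 and 42.5 with siSRSF1-3. siSRSF1-3 replicates 1 and 2 were above all other libraries and replicate 3 was below all blank libraries. The log2 fold change was 0.54 ± 0.38 with siSRSF1-3, -0.23 ± 0.13 with siSRSF1-2 and -0.09 ± 0.20 in OE-LINC01134. Without siSRSF1-3 replicate 1 the first of these was 0.20, and without replicate 3 it was 0.91.

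The first step of glutathione synthesis is catalysed by glutamate-cysteine ligase, whose catalytic subunit is GCLC (ENSG00000001084, chromosome 6, 53497341 to 53616970) and whose modifier subunit is GCLM (ENSG00000023909, chromosome 1, 93885205 to 93909456). GCLC measured 10.1, 7.42 and 7.43 FPKM in blank cells, 8.13, 7.24 and 8.06 in OE-LINC01134, 10.1, 10.3 and 10.7 with siSRSF1-2, and 7.08, 6.73 and 9.55 with siSRSF1-3. GCLM measured 12.7, 10.2 and 10.2 in blank cells, 7.56, 8.77 and 7.74 in OE-LINC01134, 12.9, 12.7 and 13.4 with siSRSF1-2, and 6.37, 9.62 and 11.2 with siSRSF1-3. Both were lower in every siSRSF1-3 library than in every siSRSF1-2 library, with log2 differences of -0.42 ± 0.16 for GCLC and -0.56 ± 0.22 for GCLM.

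In OE-LINC01134 the modifier subunit lay below every blank library (GCLM, -0.45 ± 0.14) while 2 of the 3 libraries of the catalytic subunit lay within the blank range (GCLC, -0.08 ± 0.16). The ratio of GCLC to GCLM was 0.727 to 0.792 in blank cells, 0.825 to 1.07 in OE-LINC01134, 0.786 to 0.806 with siSRSF1-2 and 0.6997 to 1.11 with siSRSF1-3. The overexpressing libraries were all above the blank libraries in this ratio, and the siSRSF1-3 libraries lay on both sides of them.

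Of the 4 members of the thioredoxin system, TXNRD1, TXN and SRXN1 had groups that did not overlap between the 2 siRNAs, and those of PRDX1 overlapped. Of all genes tested, 54.6% did not overlap between the siRNAs. TXNRD1 (thioredoxin reductase 1, ENSG00000198431, chromosome 12, 104215779 to 104350305) passes electrons from NADPH to thioredoxin. It measured 79.6, 58.5 and 59.8 FPKM in blank cells, 55.2, 51.2 and 56.1 in OE-LINC01134, 93.2, 101 and 99.0 with siSRSF1-2, and 35.5, 39.2 and 62.3 with siSRSF1-3. Every siSRSF1-2 library was above every blank library (0.58 ± 0.13) and every siSRSF1-3 library was below the blank mean (-0.56 ± 0.27), although siSRSF1-3 replicate 3 was above blank replicates 2 and 3. The difference of siSRSF1-3 from siSRSF1-2 was -1.14 ± 0.23. TXNRD1 overlaps a ribosomal protein L18a pseudogene on the same strand that held 1600 to 5451 reads per library and an antisense transcript that held 234 to 550, against 4670 to 23545 on TXNRD1, and whether the counting used strand is not given in the sources used here.

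TXN (thioredoxin, ENSG00000136810, chromosome 9, 110243811 to 110256640) is the small protein that TXNRD1 reduces. It measured 238, 178 and 187 FPKM in blank cells, 165, 247 and 163 in OE-LINC01134, 173, 181 and 185 with siSRSF1-2, and 577, 371 and 194 with siSRSF1-3. The order of the siSRSF1-3 libraries was that of FTL and NQO1, with replicate 1 highest and replicate 3 within the blank range. The log2 fold change against blank was 0.80 ± 0.42 with siSRSF1-3, and 0.43 without its replicate 1 and 1.21 without its replicate 3. The ratio of TXN to TXNRD1 was 2.99 to 3.12 in blank cells, 2.99, 4.83 and 2.91 in OE-LINC01134, 1.78 to 1.87 with siSRSF1-2, and 16.3, 9.46 and 3.12 with siSRSF1-3.

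PRDX1 (peroxiredoxin 1, ENSG00000117450, chromosome 1, 45511036 to 45523047) reduces peroxides with electrons from thioredoxin. It measured 429, 153 and 168 FPKM in blank cells and 105, 292 and 104 in OE-LINC01134, so blank replicate 1 and OE-LINC01134 replicate 2 stood apart from the others of their groups. The siSRSF1-2 libraries measured 107, 105 and 109 and the siSRSF1-3 libraries 63.7, 112 and 84.1, all below every blank library. The log2 fold change was -1.05 ± 0.39 with siSRSF1-2 and -1.40 ± 0.45 with siSRSF1-3. Without blank replicate 1 these values were -0.58 and -0.93, and the OE-LINC01134 value went from -0.60 ± 0.53 to -0.13. In blank cells the spread of PRDX1 was 1.48 log2 units, and only 7.25% of the genes tested spread more widely. PRDX1 overlaps, on the opposite strand, a gene of cobalamin metabolism that held 520 to 757 reads per library, against 1902 to 18067 on PRDX1.

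SRXN1 (sulfiredoxin 1, ENSG00000271303, chromosome 20, 646615 to 653370) restores peroxiredoxins that have been overoxidized. It was the member with the widest span. It measured 3.57, 5.05 and 3.25 FPKM in blank cells, 1.60, 1.87 and 1.56 in OE-LINC01134, 5.83, 8.41 and 8.78 with siSRSF1-2, and 0.0378, 1.36 and 5.18 with siSRSF1-3. The siSRSF1-2 libraries were all above and the OE-LINC01134 libraries all below the blank libraries, with log2 fold changes of 0.94 ± 0.22 and -1.17 ± 0.20. siSRSF1-3 replicate 1 held 2 reads on SRXN1, replicate 2 held 93 and replicate 3 held 436, against 267 to 387 in blank cells. The 2 reads gave a ratio to the blank mean of 0.00955 (exact Poisson 95% interval 0.00116 to 0.0345, which covers counting error only). The log2 fold change with siSRSF1-3 was -1.97 ± 1.19, with -0.52 when replicate 1 was left out and -3.15 when replicate 3 was. In the siSRSF1-3 group 64 of the 17538 genes tested, or 0.365%, spread more widely than SRXN1.

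**Figure D3:**
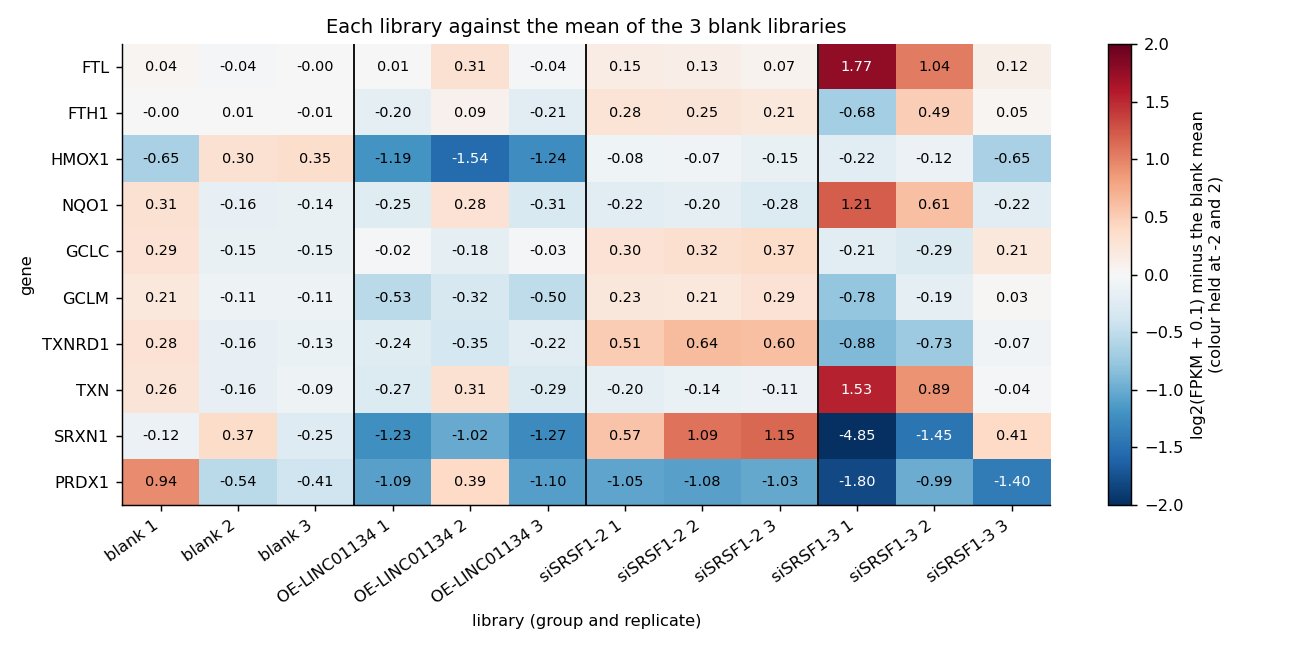
Difference of log2(FPKM + 0.1) in each library (columns, by group and replicate) from the mean of the 3 blank libraries, for the 10 genes (rows). The printed number is the difference, and the colour is held at -2 and 2. FTL, NQO1 and TXN are above 0.6 in siSRSF1-3 replicates 1 and 2, where TXNRD1, PRDX1 and SRXN1 are below -0.7.

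Across the 10 genes, limma called none in any of the 4 comparisons when an adjusted p under 0.05 and a log2 fold change beyond 1 in either direction were both required. Of all genes tested, the same rule called 4.95% for siSRSF1-2 against blank, 1.26% for siSRSF1-3 against blank, 0.85% for OE-LINC01134 against blank and 0.0855% for siSRSF1-3 against siSRSF1-2. With the p left unadjusted and the fold rule kept, PRDX1 passed with siSRSF1-2 and with siSRSF1-3, HMOX1 and SRXN1 passed in OE-LINC01134, and TXNRD1 passed between the siRNAs. Of all genes tested, 6.49% passed that rule with siSRSF1-2, 14.8% with siSRSF1-3, 7.45% in OE-LINC01134 and 16.4% between the siRNAs. These comparisons share blank or siSRSF1-2 libraries and are not independent of each other. On the reads recovered from the FPKM, limma voom called 0, 0, 2 and 0 of the 10 in the same order, the 2 being HMOX1 and SRXN1, beside 1.98% of all genes in OE-LINC01134.

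The calls depended on single libraries. Without siSRSF1-3 replicate 3, FTL and TXN were called as higher than in blank cells, 2 of 10 members beside 23.9% of all genes tested. Against siSRSF1-2, leaving out the same library gave 5 calls of 10, with FTL, NQO1 and TXN higher and TXNRD1 and SRXN1 lower, beside 30.6% of all genes. Without blank replicate 1, HMOX1 and SRXN1 were called as lower in OE-LINC01134 (5.49% of all genes), and without OE-LINC01134 replicate 2 SRXN1 was (8.78%). SRXN1 was also called as higher with siSRSF1-2 without blank replicate 2 (4.78%) or without siSRSF1-2 replicate 1 (3.34%).

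Groups of libraries that did not overlap were counted as a description. With siSRSF1-2, 7 of 10 members lay wholly above (FTL, FTH1, GCLC, TXNRD1 and SRXN1) or wholly below (NQO1 and PRDX1) blank cells, against 49.5% of all genes tested. With siSRSF1-3 this held for 2 of 10 (FTL above, PRDX1 below), against 37.2%. In OE-LINC01134 it held for 4 of 10, all below (HMOX1, GCLM, TXNRD1 and SRXN1), against 30.6%. Between the siRNAs it held for 5 of 10, with TXN higher and GCLC, GCLM, TXNRD1 and SRXN1 lower in siSRSF1-3, against 54.6%.

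The median log2 fold change of the 10 members was 0.18 with siSRSF1-2, -0.20 with siSRSF1-3 and -0.19 in OE-LINC01134, beside medians over all genes of 0.02, -0.01 and 0.05. Between the siRNAs it was -0.32, beside -0.02. Scaling each library to its own read total moved the median of all genes to -0.26 for siSRSF1-3 against blank and to -0.31 for siSRSF1-3 against siSRSF1-2, and changed the sign of no member in any comparison. On that scale FTL with siSRSF1-3 was at 0.72, NQO1 at 0.28, TXN at 0.54 and FTH1 at -0.31.

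**Figure D4:**
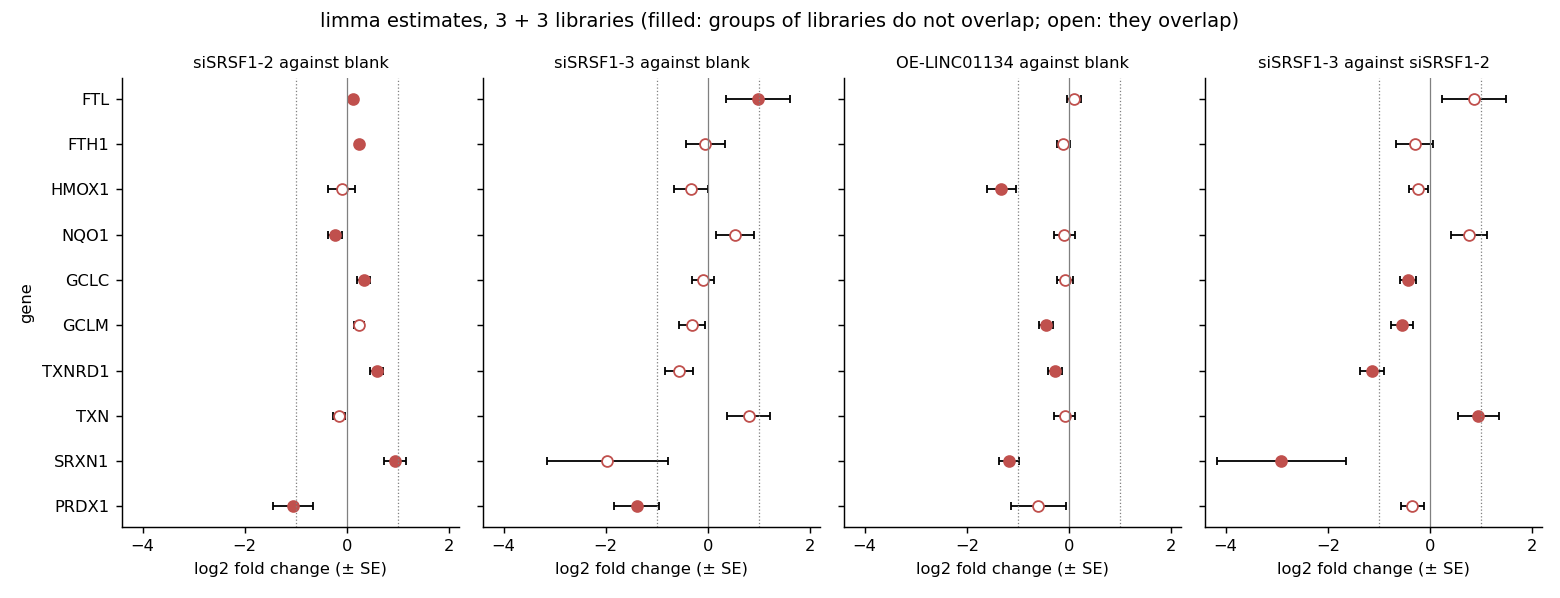
Log2 fold change with its standard error (horizontal axis, limma on log2(FPKM + 0.1), 3 + 3 libraries) of the 10 genes (vertical axis) in the 4 comparisons. Filled points mark genes whose groups of libraries do not overlap, and dotted lines stand at -1 and 1. SRXN1 lies at 0.94 with siSRSF1-2 and at -1.97, with the widest error, with siSRSF1-3.

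The members that were high in siSRSF1-3 replicates 1 and 2 belonged to genes of differing length, and levels differed between length classes in these libraries. Among all genes tested, the median difference of siSRSF1-3 replicate 1 from the blank mean was 0.09 log2 units for the 3543 genes under 1000 bases, 0.60 for the 1803 genes of 1000 to 2000 bases, 0.27 for the 4010 genes of 2000 to 4000 bases and -0.25 for the 8182 genes of 4000 bases and over. In replicate 2 these medians were 0.05, 0.47, 0.24 and -0.18, and in replicate 3 they were 0.14, 0.07, 0.02 and 0.01. FTL (878 bases) and TXN (1142 bases) are the shortest members, and they stood at 1.77 and 1.53 in replicate 1, both above the medians of their classes. GCLM (5420 bases), TXNRD1 (6708 bases) and GCLC (8646 bases) are the longest, and they stood at -0.78, -0.88 and -0.21. GCLM and TXNRD1 were thus below the median of their class and GCLC was near it. FTH1 (2030 bases, -0.68) and HMOX1 (2405 bases, -0.22) were below the median of theirs. PRDX1 (1522 bases, -1.80) and SRXN1 (2698 bases, -4.85) lay far below, and NQO1 (3254 bases, 1.21) above, the medians of their length classes. With a smooth trend on length removed, the siSRSF1-3 fold changes were 0.81 for FTL, 0.58 for TXN, 0.46 for NQO1, -0.41 for TXNRD1, -1.65 for PRDX1 and -2.12 for SRXN1. That correction turned the sign of GCLC with siSRSF1-3 from -0.10 to 0.13 and of HMOX1 with siSRSF1-2 from -0.10 to 0.01. The part of length and of the libraries that stand apart in these values was not tested.

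**Figure D5:**
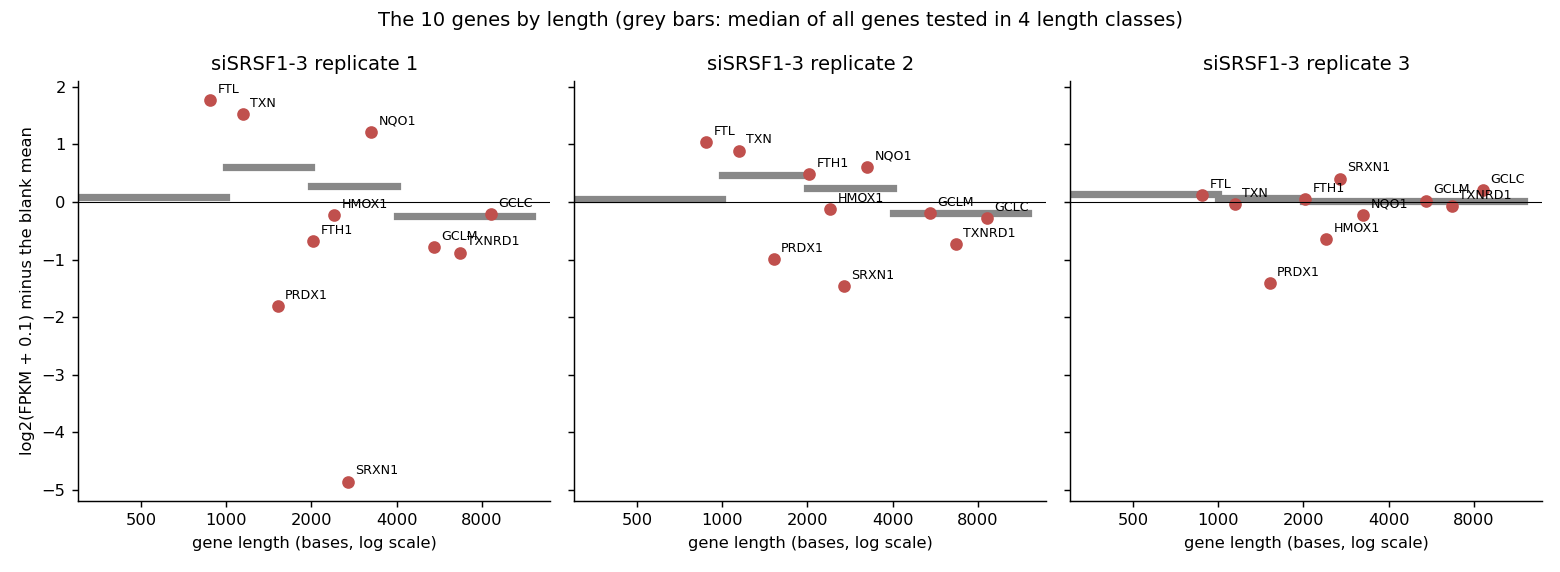
Difference of log2(FPKM + 0.1) from the blank mean (vertical axis) against gene length in bases (horizontal axis, log scale) for the 10 genes in each siSRSF1-3 library. Grey bars give the median of all genes tested in 4 length classes. In replicate 1 FTL, TXN and NQO1 lie above the grey bars, GCLC lies near its bar and the other members lie below theirs, SRXN1 and PRDX1 the furthest. In replicate 3 all members but PRDX1 lie within 0.7 of 0.

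Among 15 regulators of NRF2, none was called in any comparison (limma, and 0 also with the p left unadjusted). NFE2L2 measured 14.1 to 18.5 FPKM in blank cells, 21.4 to 23.5 in OE-LINC01134, 23.4 to 25.4 with siSRSF1-2 and 12.7 to 21.9 with siSRSF1-3. With siSRSF1-2 its difference had a small error but was under the fold used for a call (log2 fold change 0.57 ± 0.11, limma, adjusted p = 0.0144). The siSRSF1-2 libraries, and blank replicates 2 and 3, differed by only 2.17 to 2.55 times counting noise. This error may therefore not measure the spread between separate cultures, and the same holds for the other siSRSF1-2 errors and p-values below. BACH1, the repressor at the same elements, measured 10.7 to 12.2 FPKM in blank cells, 7.85 to 10.6 in OE-LINC01134, 19.2 to 20.4 with siSRSF1-2 (0.78 ± 0.07, limma, adjusted p = 0.00199) and 9.09, 8.61 and 14.96 with siSRSF1-3. SQSTM1, an autophagy receptor that binds KEAP1, measured 74.9, 103 and 102 FPKM in blank cells, 74.7 to 95.1 in OE-LINC01134, 137, 139 and 135 with siSRSF1-2, and 22.9, 91.3 and 116 with siSRSF1-3. KEAP1 measured 11.6 to 18.9 FPKM in blank cells, and its libraries in the other groups, at 12.7 to 18.8, all fell in that range.

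Of 22 other NRF2 targets tested, 2 were called, both lower with siSRSF1-2, and 0 in the other comparisons. AKR1C3, an aldo-keto reductase, went from 3.44 to 3.59 FPKM in blank cells to 1.56 to 1.73 (log2 fold change -1.04 ± 0.09, limma, adjusted p = 0.00161), and CBR1, a carbonyl reductase, from 9.61 to 11.98 to 4.72 to 5.22 (-1.07 ± 0.11, limma, adjusted p = 0.00233). Reads of AKR1C3 may be shared with its close relatives AKR1C1 and AKR1C2. With the p left unadjusted, 2 passed with siSRSF1-3 (AKR1C3 lower and OSGIN1 higher) and 2 in OE-LINC01134 (AKR1C3 and CBR1, both lower). Between the siRNAs 3 passed, 2 higher and 1 lower in siSRSF1-3. Of all genes tested, 14.8%, 7.45% and 16.4% passed in this order. SLC7A11, which imports cystine for glutathione, measured 19.6 to 24.0 FPKM in blank cells, 23.9 to 28.9 in OE-LINC01134, 37.5 to 42.0 with siSRSF1-2 and 11.8 to 22.9 with siSRSF1-3, and its difference with siSRSF1-2 was under the fold used for a call (0.93 ± 0.10, limma, adjusted p = 0.00278).

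Of 24 glutathione enzymes tested, MGST2, a microsomal glutathione transferase, was called as lower with siSRSF1-2 (-1.06 ± 0.16, limma, adjusted p = 0.00725), GPX7 as higher with siSRSF1-3 (1.34 ± 0.20, limma, adjusted p = 0.0453), and in OE-LINC01134 GPX3 as higher (1.02 ± 0.13, limma, adjusted p = 0.0370) and GSTM3 as lower (-1.18 ± 0.18, limma, adjusted p = 0.0450). GPX3, the secreted glutathione peroxidase, measured 14.4 to 18.4 FPKM in blank cells and 30.7 to 34.2 in OE-LINC01134. GSTM3 belongs to a family of near copies that may share reads. GPX4, which reduces lipid peroxides, measured 94.9, 105 and 104 FPKM in blank cells, 91.6 to 94.9 in OE-LINC01134, 107 to 112 with siSRSF1-2 and 508, 273 and 122 with siSRSF1-3, in the order of FTL and TXN, and was not called (1.34 ± 0.49, limma, adjusted p = 0.140). Between the siRNAs 0 of the 24 were called and 3 passed unadjusted, all higher in siSRSF1-3 (GPX1, GSTO1 and GSTP1), beside 16.4% of all genes tested. With siSRSF1-3 against blank 4 passed unadjusted, all higher, beside 14.8%. In OE-LINC01134 2 higher and 2 lower genes passed, beside 7.45%.

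Of 19 genes of the wider thioredoxin system and peroxide removal, catalase was called in both siRNA comparisons. CAT measured 17.0, 14.5 and 14.1 FPKM in blank cells, 6.36, 6.28 and 6.40 with siSRSF1-2 and 2.63, 4.78 and 5.94 with siSRSF1-3. Its log2 fold change was -1.24 ± 0.09 with siSRSF1-2 (limma, adjusted p = 0.00114) and -1.82 ± 0.31 with siSRSF1-3 (limma, adjusted p = 0.0483). In OE-LINC01134 it measured 7.09, 13.1 and 7.21 and was not called. Between the siRNAs 0 of the 19 were called and 6 passed unadjusted (5 higher and 1 lower in siSRSF1-3), beside 16.4% of all genes tested. With siSRSF1-3 against blank, 3 higher and 3 lower genes passed unadjusted, CAT among them, beside 14.8%. In OE-LINC01134 0 were called and 0 passed unadjusted. TXNIP, the inhibitor that binds thioredoxin, measured 4.11, 17.7 and 19.6 FPKM in blank cells, 10.1 to 12.7 in OE-LINC01134, 8.74 to 9.60 with siSRSF1-2 and 2.98 to 4.66 with siSRSF1-3. Its blank replicate 1 stood below every siSRSF1-2 library, and the difference between the siRNAs missed the threshold (-1.30 ± 0.18, limma, adjusted p = 0.0581).

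Of 20 genes of iron and heme handling tested, none was called in any comparison. Unadjusted for the number of genes, 2 passed with siSRSF1-3 (CISD1 higher and TFRC lower) and 2 in OE-LINC01134 (SLC25A37 and STEAP3, both lower). Between the siRNAs 2 passed (CISD1 and HMOX2, both higher in siSRSF1-3), and 0 passed with siSRSF1-2. Of all genes tested, 14.8%, 7.45%, 16.4% and 6.49% passed in this order. TFRC, the transferrin receptor that takes up iron, measured 27.8, 18.8 and 18.7 FPKM in blank cells, 17.7, 13.3 and 18.1 in OE-LINC01134, 13.5, 15.6 and 15.7 with siSRSF1-2 and 8.70, 8.20 and 11.5 with siSRSF1-3 (-1.18 ± 0.24, limma, adjusted p = 0.0569), so the siSRSF1-3 libraries were below all others. SLC40A1, the iron exporter ferroportin, measured 2.08 to 2.25 FPKM in blank cells, 0.956 to 1.39 in OE-LINC01134, 2.13 to 2.53 with siSRSF1-2 and 0.966 to 1.34 with siSRSF1-3. NCOA4, the receptor that carries ferritin to autophagy, measured 43.4 to 49.8 FPKM in blank cells, 36.7 to 49.4 in OE-LINC01134, 59.3 to 62.7 with siSRSF1-2 and 28.6 to 57.5 with siSRSF1-3. Over siSRSF1-2, siSRSF1-3 and OE-LINC01134 against blank and siSRSF1-3 against siSRSF1-2, the median log2 fold changes were 0.43, 0.04, 0.19 and -0.45 for the NRF2 regulators and -0.18, -0.12, -0.21 and 0.11 for the other NRF2 targets. They were -0.21, 0.47, -0.27 and 0.69 for the glutathione enzymes, -0.24, 0.36, -0.08 and 0.71 for the wider thioredoxin system, and -0.20, -0.34, -0.04 and -0.18 for iron and heme handling, beside the medians of all genes given above. Of the 8 calls in these lists, CAT with siSRSF1-2 held when each of the 6 libraries was left out in turn. The 3 siSRSF1-2 libraries, and blank replicates 2 and 3, differed by only 2.17 to 2.55 times counting noise. Leaving out 1 of them is therefore a weak test of a call. AKR1C3 was lost without siSRSF1-2 replicate 3, CBR1 without blank replicate 1, and MGST2 without either of these libraries, each time with a log2 fold change that fell short of the fold rule (-0.97 for CBR1 and up to -0.90 for MGST2). GPX7 and CAT with siSRSF1-3 were each lost in 5 of 6 such fits and held only without siSRSF1-3 replicate 3, while GPX3 was lost in 5 and GSTM3 in 4 of 6 in OE-LINC01134. The fold changes of these 4 calls kept their direction, at 1.24 to 1.49 for GPX7, -2.06 to -1.49 for CAT, 0.96 to 1.13 for GPX3 and -1.35 to -1.08 for GSTM3.

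Genes whose pattern lay nearest to a member were ranked by the root mean square difference of log2(FPKM + 0.1), centred on each gene's mean over the 12 libraries. Nearest to FTL were the genes for vascular endothelial growth factor B (0.09), ribosomal protein L6 (0.09) and the U11/U12 small nuclear ribonucleoprotein subunit 35 (0.10), against 0.53 for the size of the FTL pattern itself. Nearest to HMOX1 were dual specificity phosphatase 5 (0.20), the potassium channel subfamily K member 5 (0.23) and N-acetylneuraminate pyruvate lyase (0.24), against 0.59. Nearest to SRXN1 was the mitochondrial valine tRNA of 69 bases (0.41), followed by 2 unnamed short transcripts (0.50 and 0.61), against 1.57. The SRXN1 pattern rests largely on siSRSF1-3 replicate 1, which held 2 reads on SRXN1 and stood at -4.85 log2 units from the blank mean. The 12 libraries share group and composition, so these distances describe the libraries as much as the genes.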

How the data were processed

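RNA of 12 U2OS libraries was sequenced by the authors, who deposited a table of FPKM, a level per gene length and library size, for 58735 genes, with gene lengths and coordinates. The labels name a SMARTer kit and the supplementary methods another one, the labels name mouse genome builds, and the aligner, counter and human build are not given in the sources used here. FPKM times length gave whole reads for 100% of values (largest deviation 0.000153 of a read), and these depths limit only low genes. The library sizes implied by these values were 0.712 to 1.09 times the read totals, so the deposited FPKM carry a further scaling between libraries.

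The 17538 genes whose mean FPKM reached 0.5 were fitted on log2(FPKM + 0.1) with limma 3.58.1 in R 4.3.3 (lmFit, eBayes with a trend), using the 3 + 3 libraries of each comparison. A call needed a Benjamini-Hochberg adjusted p under 0.05 over all genes tested and a log2 fold change beyond 1 in either direction. The fit was tested on simulated data that had the same dispersion in every group. The real libraries did not spread evenly, so that test does not cover this feature of them. Fold changes are on the log2(FPKM + 0.1) scale, which understates low genes. Symbols were matched by full name, 139 of 140; SOD2 matched 2 genes and was left out.

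The members and lists were chosen with earlier results of these data known. Genes named were the members, the targeted genes, 10 listed regulators and neighbours, up to 5 called genes of each list and comparison, and the 3 nearest patterns of FTL, HMOX1 and SRXN1; other genes named beside a count of 5 or fewer were chosen after their values were seen. Alternatives were a pseudocount of 1, no filter, own read totals, 1 fit over all 4 groups, a replicate block, voom on recovered reads, a length trend (loess, span 0.5) removed and the omission of each library. Averaging near-identical replicates was chosen after seeing the data.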

Additional observations from a re-analysis of the deposited data

Results flagged for a closer look

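TXNRD1 lay on opposite sides of the blank mean with the 2 siRNAs: the 3 siSRSF1-2 libraries were all above the blank mean (mean log2 difference 0.58) and the 3 siSRSF1-3 libraries were all below it (-0.56), with siSRSF1-3 replicate 3 above 2 of the 3 blank libraries. The direct difference between the siRNAs was not called in the limma fit (-1.14 ± 0.23). It was called in 1 fit over all 4 groups, which called 2731 of the 17538 genes tested. It was also called without siSRSF1-3 replicate 3 (-1.39), the library that lay nearest to the blank mean, beside 30.6% of all genes tested. How many of all genes lay on opposite sides of the blank mean in this way was not counted.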

How the results depend on the processing

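For siSRSF1-2 against blank, siSRSF1-3 against blank, OE-LINC01134 against blank and siSRSF1-3 against siSRSF1-2, in this order, the main counts were 868, 221, 149 and 15 genes, 0, 0, 0 and 0 members, and 4, 2, 2 and 0 of the 100 listed pathway genes. Alternatives moved them as follows, and the cause was not tested unless stated. A pseudocount of 1 gave 379 genes and 1 pathway gene in the first, 0 pathway genes in the third, and 84 genes and 1 pathway gene in the fourth. No filter gave 116 genes and 0 pathway genes in the second, 81 and 0 in the third and 109 genes in the fourth. Own read totals gave 69 genes and 0 pathway genes in the second and 1 pathway gene in the third. One fit over all 4 groups gave 314, 2422, 689 and 2731 genes, 1, 13, 7 and 15 pathway genes, and 1 member in the second (PRDX1), 1 in the third (HMOX1) and 2 in the fourth (SRXN1 and TXNRD1). voom on recovered reads gave 587, 348 and 110 genes and 8, 5 and 1 pathway genes in the last 3, and 2 members in the third. With near-identical replicates averaged, 0, 0, 1 and 0 genes, 0 members and 0 pathway genes were called; this leaves 1 sample of siSRSF1-2 and 2 each of blank and OE-LINC01134, too few for a lost call to bear on stability. Leaving out each library in turn gave 534 to 1188, 0 to 4184, 1 to 1540 and 0 to 5358 genes, 0 to 1, 0 to 2, 0 to 2 and 0 to 5 members, and 2 to 5, 0 to 22, 0 to 15 and 0 to 33 pathway genes. The highest counts for the second and the fourth came without siSRSF1-3 replicate 3, and that for the third without OE-LINC01134 replicate 2.

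With the replicate number as a block, the fit called 681, 0, 4 and 0 genes and 4, 0, 0 and 0 pathway genes, and 0 members. Same-numbered libraries deviated from their group means with correlations of -0.08 to 0.21, not all over 0.1. Differently numbered libraries were not set beside them, so these correlations cannot settle whether the numbers pair the libraries.

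In the same order, the members' log2 fold changes stayed within 1 SD of their libraries for 137, 140, 139 and 133 of 140 values under alternatives. Of the 140 values, 4, 3, 7 and 1 had the other sign. Leaving out 1 of 3 libraries cannot move a mean by 1 SD as measured here. The replicate block, the fit over all 4 groups and the absence of a filter leave the fold changes as they are. The counts within 1 SD therefore say little about stability. With siSRSF1-3 against blank, leaving out single libraries gave -3.15 to -0.52 for SRXN1 and 0.58 to 1.41 for FTL. Depth limits only SRXN1 in siSRSF1-3 replicate 1, with 2 reads.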
